A study of Mus musculus with 18 samples.

Results

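A set of 10 genes that cells switch on within minutes of a stimulus or a stress was followed across sorted mouse mammary tumor cells, sorted normal mammary cells and a reference RNA. The genes are Fos, Fosb, Jun, Junb, Egr1, Ier2, Atf3, Dusp1, Zfp36 and Hspa1a, 10 of the 18193 genes that the array annotation names. The genes were chosen by name, and every probe set annotated to them was taken, 11 of 45101 in all, with 2 for Jun and 1 for each of the others. All 10 genes passed the filter on dim genes, so none is missing from the comparisons.

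Immediate early genes are transcribed without new protein synthesis, from factors such as SRF, the Elk proteins and CREB that are already present and are switched on by MAP kinases and other signals. Fos, Fosb, Jun and Junb encode subunits of AP-1, the dimeric leucine zipper factor, while Egr1 encodes a zinc finger factor and Atf3 a stress-inducible member of the ATF/CREB family. Dusp1 encodes a phosphatase that switches MAP kinases off, Zfp36 encodes tristetraprolin, which speeds the decay of mRNAs with AU-rich elements, and Hspa1a encodes the inducible chaperone HSP70. Enzymatic dissociation and cell sorting are known to induce many of these genes in a range of tissues.

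The data are 18 Affymetrix mouse arrays, each hybridised with 1 biotin-labelled sample. Tumors 1, 2 and 7 were each sorted on CD29 (integrin beta1) and CD24 into 4 fractions, called CD29H CD24H, CD29H CD24L, CD29L CD24H and CD29L CD24L for high (H) and low (L) staining, with 1 array per tumor and fraction (12 arrays, n = 3 per fraction). The CD29H CD24H cells are known from the study to be those enriched for tumor-initiating capacity. The labels give transplantation generation 1 for the 8 arrays of tumors 1 and 2 and none for the 4 of tumor 7, so whether tumor 7 was at the same passage is not known here. Normal mammary epithelial cells, labelled MEC, gave 2 arrays of CD29H CD24P cells (CD29 high, CD24 positive), 2 of CD29P CD24H cells (CD29 positive, CD24 high) and 1 of CD24L cells. The last array held a reference RNA bought from Stratagene. Genotype, strain and age are not given in the sources used here. RNA of the sorted cells was isolated with a PicoPure kit and amplified over 2 cycles. No array of undissociated tissue was among the 18, so levels in the tissue and levels after dissociation cannot be told apart.

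All arrays had been scaled to the same trimmed mean of 500 signal units, and their median signals lay between 71.6 and 104 units. Precision is limited by how few arrays each group holds. The 3'/5' signal ratio of the actin control probe sets, a sign of RNA integrity and amplification, lay between 14.4 and 99.3 on the tumor arrays, between 3.08 and 24.7 on the normal arrays and at 15.0 on the reference RNA array. The summed signal of 9 fibroblast marker genes lay between 175926 and 219823 units on the 3 CD29H CD24L tumor arrays, between 11646 and 92678 units on the other 9 tumor arrays, and between 9797 and 24845 units on the 4 CD29H CD24P and CD29P CD24H normal arrays. The normal CD24L array had the highest fibroblast sum, 278061 units, and the lowest sum of 7 luminal markers, 1670 units against at least 15666 units on every tumor array. These values go against its epithelial label. Its sum of 7 basal epithelial markers, 10063 units, lay above the normal CD29P CD24H arrays (2142 and 2434 units) and below the CD29H CD24P arrays (121139 and 118559 units). No marker of these lists was at 0 on all arrays of a group. A larger number of such cells in a fraction and more RNA per cell cannot be told apart in bulk arrays.

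Promoter stretches are printed for Fos, Dusp1, Atf3, Zfp36 and Hspa1a, which hold letters known from signal-induced promoters, and for Hspa1b, as context for the levels that follow. Each is the 150 bases upstream of the annotated start, 5′ to 3′ in the direction of transcription, from RefSeq on build GRCm38.
Fos, chr12:85473740-85473889, plus strand: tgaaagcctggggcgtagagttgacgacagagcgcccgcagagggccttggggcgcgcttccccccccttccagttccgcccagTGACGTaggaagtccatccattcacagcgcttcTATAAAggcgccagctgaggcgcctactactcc
Dusp1, chr17:26508473-26508622, minus strand: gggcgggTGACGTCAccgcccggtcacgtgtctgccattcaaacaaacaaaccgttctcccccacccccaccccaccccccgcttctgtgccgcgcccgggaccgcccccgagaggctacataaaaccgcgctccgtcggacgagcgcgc
Atf3, chr1:191183334-191183483, minus strand: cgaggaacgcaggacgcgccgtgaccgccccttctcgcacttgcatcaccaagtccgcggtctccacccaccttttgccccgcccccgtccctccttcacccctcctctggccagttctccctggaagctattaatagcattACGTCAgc
Zfp36, chr7:28379229-28379378, minus strand: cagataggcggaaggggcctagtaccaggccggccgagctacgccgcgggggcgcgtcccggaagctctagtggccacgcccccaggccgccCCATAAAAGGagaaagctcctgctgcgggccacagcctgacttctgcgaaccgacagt
Hspa1a, chr17:34972157-34972306, minus strand: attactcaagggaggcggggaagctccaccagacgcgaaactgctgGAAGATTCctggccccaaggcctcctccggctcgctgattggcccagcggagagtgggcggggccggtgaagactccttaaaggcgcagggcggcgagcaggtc
Hspa1b, chr17:34959239-34959388, minus strand: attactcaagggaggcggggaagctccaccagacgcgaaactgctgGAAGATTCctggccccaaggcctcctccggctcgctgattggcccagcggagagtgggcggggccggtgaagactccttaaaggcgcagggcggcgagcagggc

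Capitals mark matches to 4 motifs, each searched on both strands over 250 upstream bases. The first is TGACGT, the core of the sites that ATF and CREB factors bind, which stands in the promoters of Fos, Dusp1 and Atf3, 3 of the 8 members searched (all but Egr1 and Ier2). In Atf3 it reads ACGTCA, as the match is on the other strand. The motif is found in 6.47% of all 32851 RefSeq promoters of that length. In Dusp1 it lies on both strands, where the matches overlap in the palindrome TGACGTCA, and Dusp1 holds a further match upstream of the printed stretch. The second is TATAAA, found in Fos alone among the 8 and in 12.4% of promoters. The CArG box, the SRF site, was found in Zfp36 alone among the 8 and in 1.47% of promoters. Egr1 and Ier2 were not searched, and neither were bases further upstream than 250. The count therefore does not show how many members have an SRF site. GAANNTTC, a pair of heat shock factor half-sites, was found in Hspa1a and Jun among the 8 and in 6.69% of promoters. The AP-1 motif TGANTCA had no match in the 8 windows and is found in 6.75% of promoters. A match describes the letters only. The promoters of Hspa1a and its neighbour Hspa1b share 247 of 250 bases, and the coding regions of the pair are also known to be near-identical, so whether each probe set reads only its own gene is uncertain.

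The reference RNA gave a level from outside these sorts. Hspa1a had a signal of 16732 to 61475 units on the 17 sorted-cell arrays (median 36380) against 293 units on the reference array, a median ratio of 124 with a range of 57.1 to 210. The 3 probe sets annotated to Hspa1b had median ratios of 60.2, 36.6 and 16.2. Each of these 4 probe sets was above the reference on every sorted-cell array, tumor or normal, and they may read transcripts of both genes. Atf3 followed with a median of 4730 units in sorted cells against 613 units in the reference RNA, a ratio of 7.72 (range 2.52 to 27.4). Fosb had a median of 2453 units against 462 units, a ratio of 5.31 (range 2.09 to 22.9). Dusp1, Jun and Fos had median ratios of 3.21, 2.99 and 2.23. The remaining members stood closer to the reference, with median ratios of 1.71 for Junb, 1.53 for Egr1, 1.38 for Ier2 and 1.08 for Zfp36, and each of these 4 had sorted-cell arrays on both sides of it.

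On all 17 sorted-cell arrays the signal was above the reference array for 6 of the 10 members (Fos, Fosb, Jun, Atf3, Dusp1 and Hspa1a), against 8.50% of the 10916 genes tested. The median was at least 4 times the reference for 3 members (Fosb, Atf3 and Hspa1a), against 6.33% of genes. The reference was 1 array of a commercial RNA that differs from the sorted cells in its origin and its isolation, so this comparison has no replicate check on its side and no test.

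**Figure D1:**
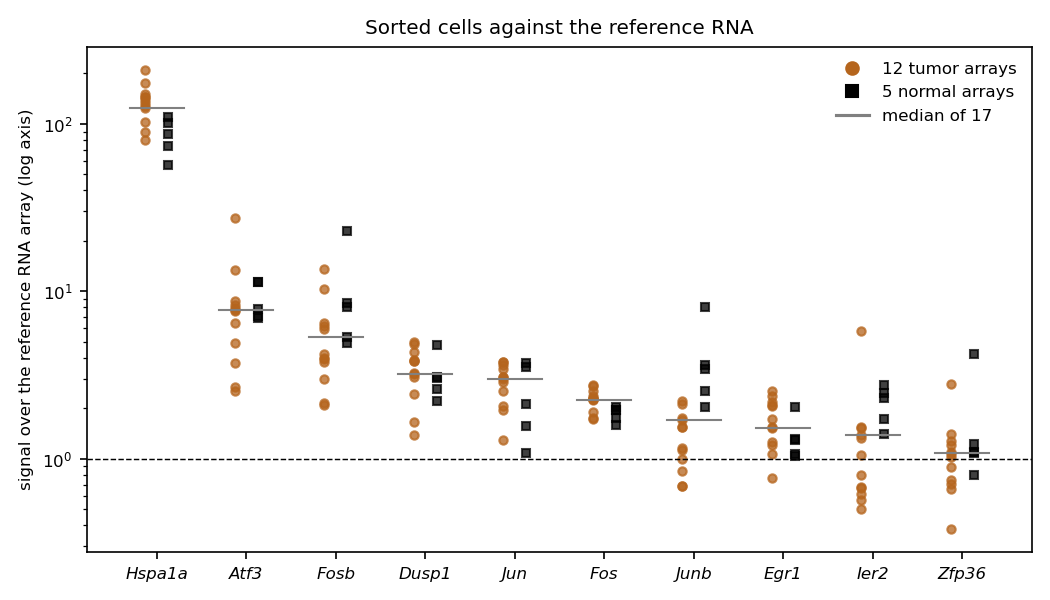
Signal of each gene on the sorted-cell arrays divided by its signal on the reference RNA array (log axis), with 12 tumor arrays as circles, 5 normal arrays as squares and a bar at the median of the 17. Hspa1a stands highest with a median ratio of 124 and Zfp36 lowest at 1.08; for 6 genes every point is above 1.

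The AP-1 subunits had unlike patterns over the groups. Fosb had 1747, 1823 and 965 units on the CD29H CD24H arrays (tumors 1, 2 and 7 in that order, here and below), against 6231, 4751 and 2974 units in CD29H CD24L, 2867, 2733 and 1384 units in CD29L CD24H and 1845, 999 and 1959 units in CD29L CD24L cells. All 3 CD29H CD24L arrays were above the other 9 tumor arrays, an order shown by 1 of the 10 members and by 4.07% of genes. In normal cells Fosb had 2453 and 2258 units in CD29H CD24P, 3942 and 3704 units in CD29P CD24H and 10564 units in CD24L cells, the highest of the 17 sorted-cell arrays. Its 3 highest signals were thus on the normal CD24L array and the CD29H CD24L arrays of tumors 1 and 2, which were among the 4 arrays with the highest fibroblast sums. The part of those cells in the Fosb levels was not tested.

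Fos, a classic partner of Jun, varied least. It had 33620, 28592 and 34465 units in CD29H CD24H, 38315, 34357 and 35579 units in CD29H CD24L, 25894, 41772 and 41166 units in CD29L CD24H and 34624, 26270 and 34388 units in CD29L CD24L cells. Normal cells had 23982 to 30710 units, and the reference RNA 15093 units. On the log2(signal + 32) scale the standard deviation (SD) of Fos over the 17 arrays was 0.24, and the tumor fractions overlapped. The files hold no mark of scanner saturation, so compression at these high signals could not be checked. The same limit holds for Egr1, Hspa1a and Hspa1b, whose highest signals were above those of Fos.

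Jun, which forms AP-1 with Fos proteins or with itself, had 11292, 9156 and 5816 units in CD29H CD24H, 11352, 10934 and 9230 units in CD29H CD24L, 8634, 10334 and 7616 units in CD29L CD24H and 8974, 3851 and 6154 units in CD29L CD24L cells. Its normal values were 4696 and 3233 units in CD29H CD24P cells, against 10536 and 11119 units in CD29P CD24H cells, with 6396 units on the CD24L array. The second Jun probe set gave 2659 and 3090 units in CD29H CD24P, against 6380 and 5623 units in CD29P CD24H cells. Neither probe set overlapped between the 2 normal fractions. Fos, Fosb and Atf3 were likewise lower on both CD29H CD24P arrays than on both CD29P CD24H arrays, so that 4 of 10 members showed this order, against 33.3% of genes, and Dusp1 showed the opposite order, against 31.1%.

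Junb, an AP-1 subunit that can oppose Jun, had 335, 484 and 565 units in CD29H CD24H, 411, 755 and 859 units in CD29H CD24L, 554, 757 and 1074 units in CD29L CD24H and 334, 836 and 1032 units in CD29L CD24L cells. The normal arrays had 1232 and 1678 units in CD29H CD24P, 993 and 1769 units in CD29P CD24H and 3930 units in CD24L cells. The tumor range overlapped the normal one at its upper end only, where tumor 7 CD29L CD24H cells (1074 units) and CD29L CD24L cells (1032 units) passed the lowest normal array. In every fraction the order was tumor 1 lowest, then tumor 2, then tumor 7.

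Egr1 had 35591, 26332 and 18240 units in CD29H CD24H, 40365, 43089 and 35380 units in CD29H CD24L, 26159, 37042 and 29465 units in CD29L CD24H and 21319, 13132 and 20456 units in CD29L CD24L cells. All 3 CD29H CD24L arrays were above all 3 CD29L CD24L arrays, as also for Fosb and Jun, 3 of 10 members against 8.68% of genes. The 4 normal epithelial arrays lay between 17740 and 22480 units, the CD24L array at 34684 units and the reference RNA at 17048 units. Ier2, a short-lived nuclear protein, was spread widely, from 730 units in tumor 1 CD29H CD24H cells to 8482 units in tumor 7 CD29L CD24H cells. That tumor 7 array was also the highest for Atf3, at 16767 units, and 2 of 10 members against 7.15% of genes peaked on it.

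Atf3 had 1647, 4853 and 8163 units in CD29H CD24H, 1545, 4703 and 3945 units in CD29H CD24L, 2996, 5389 and 16767 units in CD29L CD24H and 2300, 5069 and 4730 units in CD29L CD24L cells. The 4 arrays of tumor 1 were all below the 8 arrays of tumors 2 and 7. Dusp1 showed the same split, with 6715, 18724 and 15666 units in CD29H CD24H, 15062, 23672 and 21244 units in CD29H CD24L, 8092, 24198 and 18989 units in CD29L CD24H and 11920, 18694 and 15801 units in CD29L CD24L cells. Those were 2 of the 10 members, against 1.74% of genes. Normal cells had 4271 to 6964 units of Atf3 and 10776 to 23204 units of Dusp1.

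Zfp36 had 1023, 3471 and 2405 units in CD29H CD24H, 2902, 7552 and 3806 units in CD29H CD24L, 1794, 2968 and 2758 units in CD29L CD24H and 1905, 3287 and 2013 units in CD29L CD24L cells. Its highest signal, 11428 units, was on the normal CD24L array, against 2160 to 3336 units on the 4 other normal arrays. Fosb, Junb and Zfp36 all peaked on that CD24L array, 3 of 10 members against 10.2% of genes. Hspa1a had 30053, 40628 and 39099 units in CD29H CD24H, 37662, 51214 and 42157 units in CD29H CD24L, 23531, 61475 and 44400 units in CD29L CD24H and 26048, 36380 and 42377 units in CD29L CD24L cells, and 16732 to 32088 units in normal cells. Each count of arrays that do not overlap was looked for after the values had been seen.

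**Figure D2:**
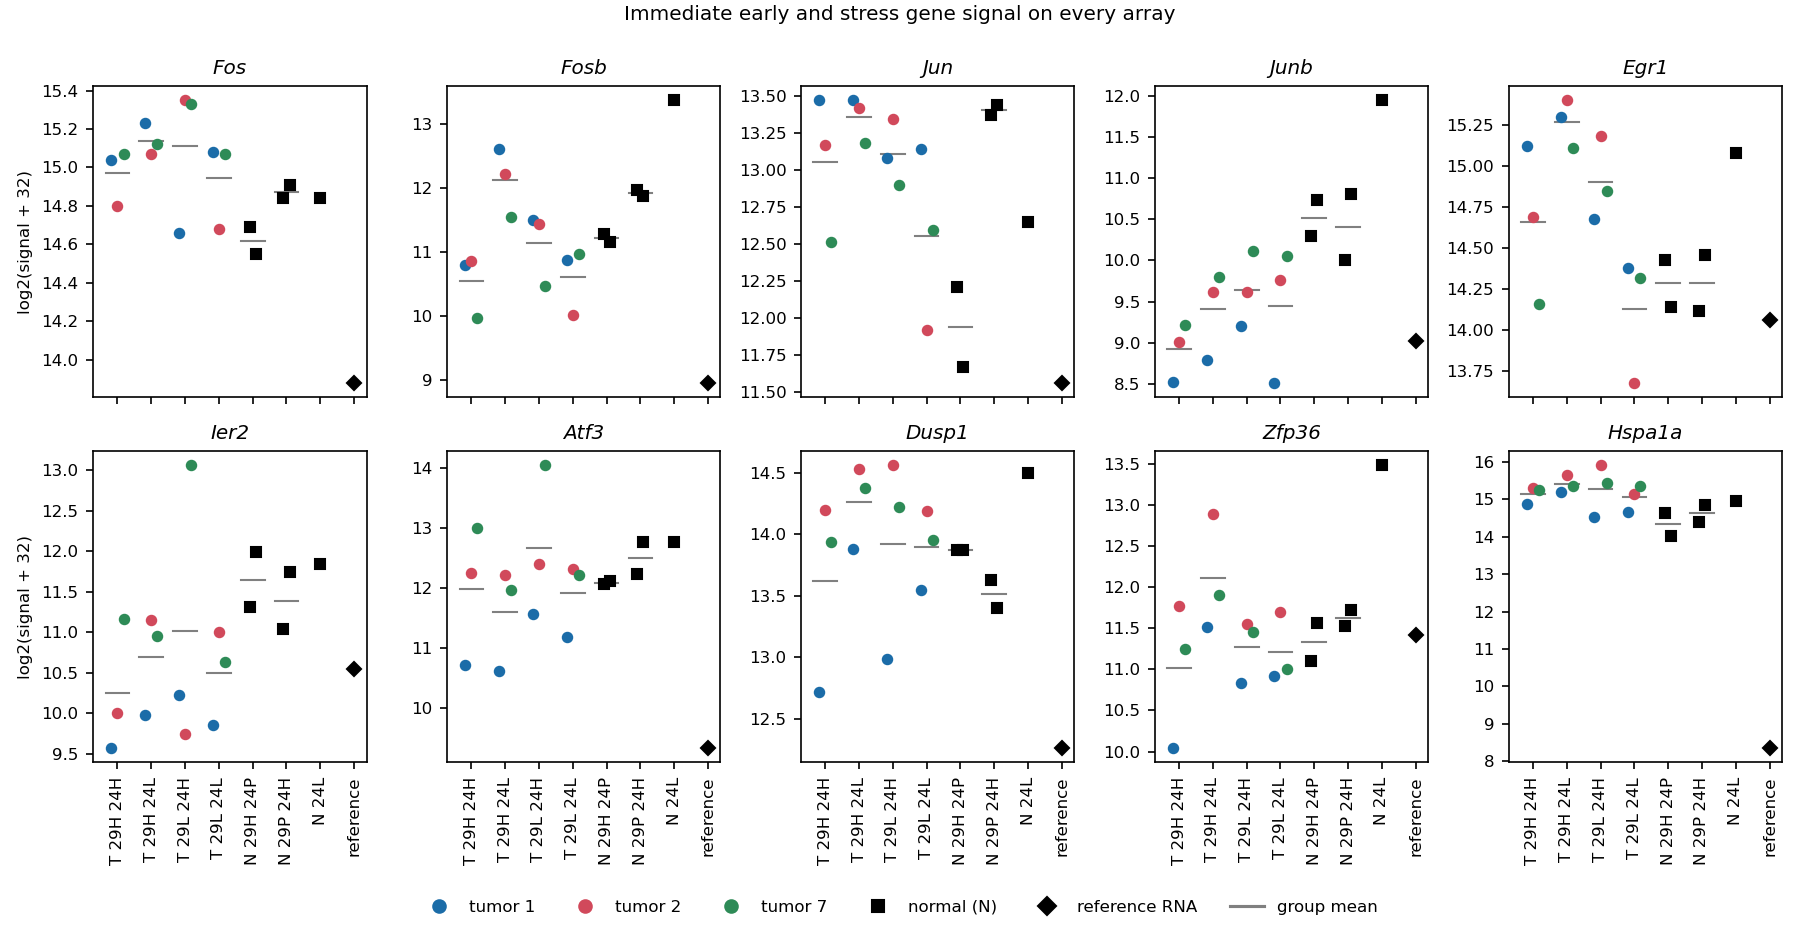
Signal of the 10 genes as log2(signal + 32) on every array, by tumor fraction (T), normal fraction (N) and reference RNA, with circles coloured by tumor, squares for normal cells, a diamond for the reference RNA and bars at group means. The CD29H CD24L circles of Fosb sit above all other tumor circles, and the CD29H CD24P squares of Jun sit below those of CD29P CD24H.

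The order of the group means followed no single line across the genes. In tumors the CD29H CD24L mean was highest for Fosb (12.13 ± 0.54 on the log2 scale, SD, n = 3), Jun (13.36 ± 0.16), Egr1 (15.27 ± 0.14), Dusp1 (14.26 ± 0.34), Zfp36 (12.10 ± 0.71), Fos (15.14 ± 0.08) and Hspa1a (15.40 ± 0.22). The CD29L CD24H mean was highest for Junb (9.64 ± 0.46), Ier2 (11.01 ± 1.79) and Atf3 (12.67 ± 1.26). For Fos, Hspa1a, Dusp1, Atf3, Ier2, Junb and Zfp36 each pair of tumor fractions overlapped, so their order is not resolved by this spread. For Jun and Egr1 neighbours in the order of the means overlapped. The CD29L CD24H arrays were all above the CD29L CD24L arrays for Egr1 alone, 1 of 10 members against 4.16% of genes.

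The 12 tumor values were then split by tumor of origin and by fraction. Between-tumor differences took 70.3% of the sum of squares for Dusp1, 67.7% for Atf3, 66.9% for Junb and 62.7% for Hspa1a, against a median of 38.5% over all genes. Between-fraction differences took 68.8% for Egr1 and 67.8% for Fosb, against a median of 23.3%, and the tumor share of these 2 genes was 4.52% and 14.2%. Zfp36 was split 49.6% by tumor and 39.0% by fraction, and Jun 21.1% and 43.0%. Ier2 had 47.8% by tumor and 9.23% by fraction. Fos had 12.5% by tumor and 15.7% by fraction, and both Fos shares were below the medians. The shares are raw and not corrected for the unequal number of tumors and fractions, so the medians over all genes are the measure to read them against. Egr1 and Fosb thus followed the sort more than the tumor, and Dusp1, Atf3, Junb and Hspa1a the tumor more than the sort.

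**Figure D3:**
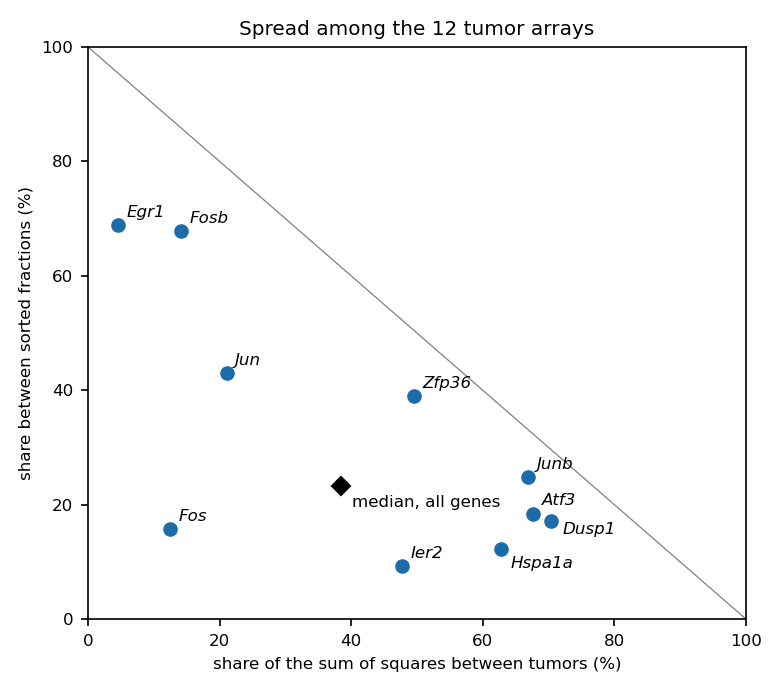
Share of each gene's sum of squares among the 12 tumor arrays that lies between the 3 tumors (horizontal, percent) and between the 4 sorted fractions (vertical, percent), with the median over all genes as a diamond; no point can lie above the line. Egr1 and Fosb stand at the upper left (68.8% and 67.8% between fractions), and Dusp1, Atf3, Junb and Hspa1a at the lower right.

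Pairs of members moved together to different degrees over the 12 tumor arrays. The highest Pearson correlations were 0.92 between Jun and Egr1, 0.85 between Dusp1 and Zfp36, 0.85 between Dusp1 and Hspa1a, and 0.82 between Ier2 and Atf3. The lowest was −0.50, between Fosb and Atf3. These describe arrays that share tumors and amplification and carry no p-value. Outside the members, the genes most like the mean of the 10 scaled member profiles over the 17 sorted-cell arrays were Mxra8 (r = 0.87), Nuak1 (0.85), Tmtc1 (0.82), Unc5c (0.81) and Ubtd2 (0.80). Over the 12 tumor arrays they were Hey1 (0.93), Ubr1, Oxt and Nuak1 (0.88 each) and Ubtd2 (0.87). These were picked as the highest of all genes tested. The members themselves, which make up the mean, had lower values, from 0.29 (Jun) to 0.78 (Zfp36) over the 17 arrays. Over the 12 tumor arrays they ran from 0.29 (Jun) to 0.85 (Hspa1a).

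The first tumor comparison asked whether CD29H CD24H cells differ from the mean of the other 3 fractions. None of the 10 members passed in limma, against 0% of 10916 genes, at an adjusted p of 0.05. At an unadjusted p under 0.05 there were 759 genes and 0 members. Of the 10 differences 9 were negative, with a median of −0.26 against 0.00 over all genes. Fosb differed by −0.75 ± 0.36 (SE, adjusted p = 0.728), Junb by −0.58 ± 0.37 (adjusted p = 0.860) and Zfp36 by −0.51 ± 0.40 (adjusted p = 0.914). Jun, at 0.04 ± 0.29, was the positive one. With the tumor as a replicate block 0 members passed, against 0.779% of genes, and the lowest adjusted p was 0.197, for Fosb.

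The next comparison was made within CD29 high cells. In each of the 3 tumors 8 of 10 members were lower in CD29H CD24H than in CD29H CD24L cells, against 18.6% of genes, and Atf3 was higher in each, against 21.9%. Jun was counted by its probe set of highest mean, with 11292 against 11352 units in tumor 1. Its second probe set was lower in tumors 1 and 7 but higher in tumor 2 (15332 against 12412 units). The median difference of the 10 was −0.47, against 0.05 over all genes. The fit without the tumor block passed 0 of 10 members, against 2.17% of genes (237, each of them lower). Fosb differed by −1.59 ± 0.44 (adjusted p = 0.114), Zfp36 by −1.08 ± 0.49 (adjusted p = 0.570), Dusp1 by −0.65 ± 0.45 and Egr1 by −0.62 ± 0.29. Fosb and Zfp36 had an unadjusted p under 0.05. The RNA of the 2 genes of the sort did not pass here either, with Cd24a at 0.18 ± 0.32 and Itgb1 (CD29) at −1.46 ± 0.85.

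The tumor numbers pair the arrays, and with the tumor as a block 2 members were lower in CD29H CD24H cells, against 4.62% of genes lower and 4.93% in either direction. Fosb was lower by −1.59 ± 0.34 (adjusted p = 0.0102 in limma) and Zfp36 by −1.08 ± 0.29 (adjusted p = 0.0440). The Fosb call was lost without the CD29H CD24H array of tumor 7 (−1.45, adjusted p = 0.0657), the CD29H CD24L array of tumor 1 (−1.50, adjusted p = 0.0573) or that of tumor 2 (−1.55, adjusted p = 0.0565). The Zfp36 call was lost in 9 of the 12 fits that left out 1 array, with an adjusted p between 0.0549 and 0.234, and held on leaving out 3 arrays singly (both CD29L arrays of tumor 2 and the CD29L CD24L array of tumor 1). With the actin ratio as a covariate in the blocked fit Fosb passed (adjusted p = 0.0250) and Zfp36 did not (adjusted p = 0.0751). In the blocked fit all 9 fibroblast markers were also lower, among them Fap by −3.83 ± 0.46 and Dcn by −4.34 ± 0.63. Of the 2 endothelial markers tested, Cdh5 was lower (−1.46 ± 0.38, adjusted p = 0.0363) and Kdr did not pass (−1.44 ± 0.41, adjusted p = 0.0585), and the sum of 6 endothelial markers was 275 to 643 units in CD29H CD24H cells, against 637 to 2522 units in CD29H CD24L cells. The part of either list in the Fosb and Zfp36 differences was not tested.

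Against CD29L CD24H cells all 10 differences of the CD29H CD24H cells were negative, from −0.76 ± 0.75 for Ier2 to −0.06 ± 0.35 for Jun, with a median of −0.28 against −0.03 over all genes. In limma 0 members passed, against 0% of genes, and 287 genes but no member had an unadjusted p under 0.05. Against CD29L CD24L cells 5 differences were positive and 5 negative, with a median of −0.02, and 0 members passed, against 0.0366% of genes. Egr1 differed by 0.53 ± 0.29 and Jun by 0.50 ± 0.35 there. In the blocked fits 0 members passed either, against 0.00916% and 0.531% of genes. Itgb1 (CD29) RNA did not pass without the block, at −0.50 ± 0.85 against CD29L CD24H and 0.69 ± 0.85 against CD29L CD24L cells. The comparisons so far share the 3 CD29H CD24H arrays.

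A comparison added after the values had been seen asked whether the CD24 difference was the same in CD29 high and CD29 low tumor cells. For Fosb, CD24 high minus CD24 low was −1.82, −1.37 and −1.59 within CD29 high cells of tumors 1, 2 and 7, against 0.63, 1.42 and −0.49 within CD29 low cells. For Egr1 it was −0.18, −0.71 and −0.95 within CD29 high cells, against 0.29, 1.49 and 0.53 within CD29 low cells. The sign of the Egr1 difference thus turned with CD29 in all 3 tumors, as it did in this direction in 2.09% of genes and in no other member. The difference of the differences was −2.11 ± 0.62 for Fosb (adjusted p = 0.330 in limma) and −1.39 ± 0.40 for Egr1 (adjusted p = 0.326), and 0 members passed, against 0% of genes.

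With the tumor as a block the Fosb difference between the CD24 effects passed (adjusted p = 0.0371), 1 of 10 members against 1.93% of genes, and that of Egr1 did not (adjusted p = 0.0864). The Fosb value was lost in 9 of 12 fits that left out 1 array and held without any 1 of the tumor 7 arrays of CD29H CD24L, CD29L CD24H and CD29L CD24L cells, with an adjusted p between 0.00494 and 0.129 over the 12. It was also lost with the actin ratio as a covariate (−1.90, adjusted p = 0.0841) and without the 2 tumor arrays of lowest actin ratio (−1.77, adjusted p = 0.276). All 10 members had negative values in this contrast, with a median of −0.78 against −0.03 over all genes. Of the 9 fibroblast markers 4 passed in the same direction in the blocked fit, among them Fap at −3.78 ± 0.65, and their part was not tested. The RNA of the sort genes stood at −2.65 ± 0.72 for Itgb1 (adjusted p = 0.0847) and −0.30 ± 0.38 for Cd24a in that fit.

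**Figure D4:**
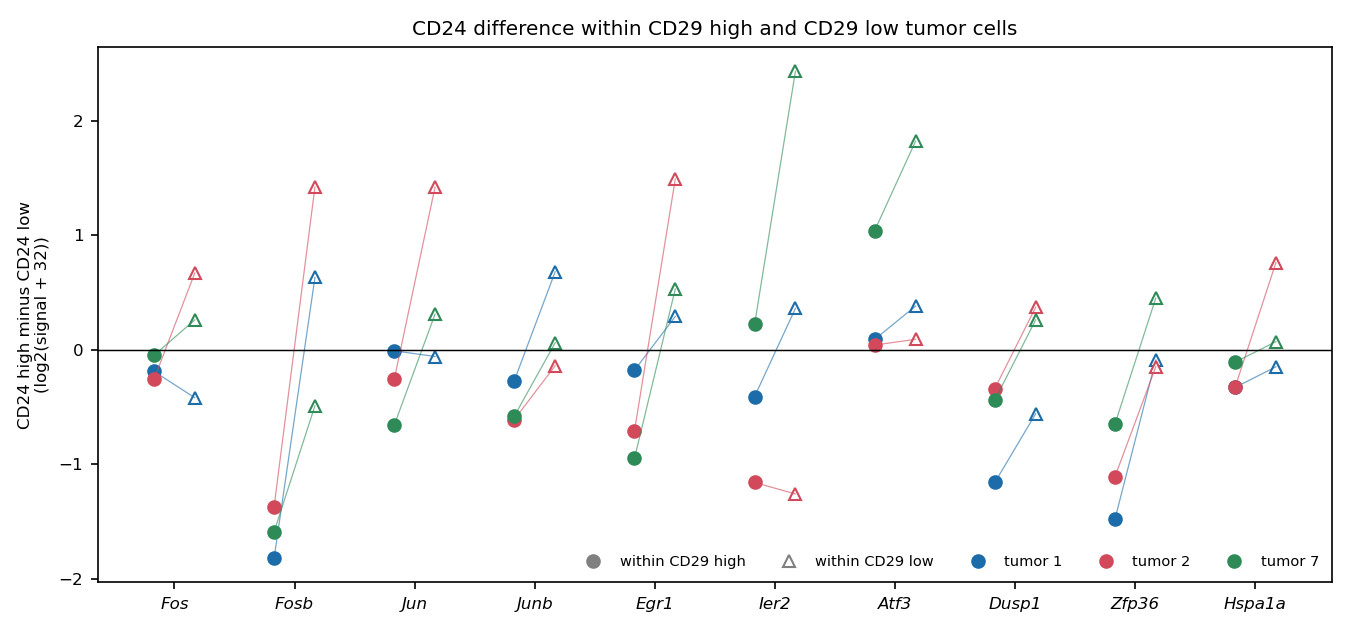
CD24 high minus CD24 low, on the log2(signal + 32) scale, within CD29 high (filled circles) and CD29 low (open triangles) cells of each tumor, coloured by tumor and joined by lines. All Fosb circles lie between −1.82 and −1.37, and the Egr1 circles are below 0 and its triangles above 0 in all 3 tumors.

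In normal epithelium 2 of 10 members were lower in CD29H CD24P cells when set against CD29P CD24H cells, against 14.6% of genes lower and 28.9% in either direction. CD29H CD24P cells carried basal markers, 118559 and 121139 units in sum against 2142 to 2434 units in CD29P CD24H cells, and all 7 luminal markers were lower in them. Of 5 leukocyte markers tested 3 were lower, Cd52 by −2.25 ± 0.31, Ptprc by −1.69 ± 0.29 and Laptm5 by −1.55 ± 0.33, and 1 was higher, and the sum of 9 was 1738 to 2462 units in CD29H CD24P cells, against 3819 to 5350 units in CD29P CD24H cells. The part of these markers in the member differences was not tested. Jun was lower by −1.47 ± 0.24 (adjusted p = 0.00148 in limma) and Fosb by −0.69 ± 0.22 (adjusted p = 0.0436). Without CD29H CD24P replicate 1 or 2 the Fosb call was lost (adjusted p = 0.199 and 0.322), and without the filter on dim genes too (adjusted p = 0.0555). The other 8 members did not pass, from −0.42 ± 0.24 for Atf3 to 0.35 ± 0.19 for Dusp1, and Egr1 differed by 0.00 ± 0.20. The actin ratio was 7.09 and 3.08 on the CD29H CD24P arrays and 24.7 and 6.33 on the CD29P CD24H arrays, and its part was not tested.

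Genes related to the members moved in both directions in this normal comparison. Among 26 other immediate early genes 8 were higher and 5 lower in CD29H CD24P cells. Arc, a neuronal immediate early gene, was higher by 4.36 ± 0.27, Egr2, a relative of Egr1, by 2.32 ± 0.28, and the orphan nuclear receptor genes Nr4a3, Nr4a2 and Nr4a1 by 1.92 ± 0.23, 1.39 ± 0.25 and 0.71 ± 0.23. The Krüppel-like factor genes Klf2 and Klf6 were lower by −2.24 ± 0.26 and −1.60 ± 0.23, and Gadd45a, a stress and growth arrest gene, by −1.73 ± 0.25. Of 11 AP-1 relatives Maff (1.06 ± 0.28) and Fosl1 (0.76 ± 0.23) were higher and Mafk (−0.80 ± 0.24) was lower.

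Of 17 genes on the list of feedback phosphatases and decay factors, which also holds other feedback genes such as Nfkbiz, 4 were higher and 4 lower in CD29H CD24P cells. Spry1, an inhibitor of receptor tyrosine kinase signals, was higher by 1.63 ± 0.27 and Zfp36l2, a relative of Zfp36, by 1.27 ± 0.23, while Nfkbiz differed by −2.10 ± 0.25 and Dusp16, a phosphatase of JNK and p38, by −1.81 ± 0.23. Of 20 heat shock genes 7 were higher and 1 lower, with the small chaperone genes Hspb8 at 1.82 ± 0.30 and Cryab at 1.57 ± 0.22, the HSP70 co-chaperone gene Bag3 at 1.70 ± 0.22, and Dnajb4 at −0.68 ± 0.22. Of 18 genes on the list of upstream kinases and SRF partners 2 were higher, Elk3 by 1.61 ± 0.26 and Crem by 0.93 ± 0.23. Crem is on that list although it is neither a kinase nor an SRF partner. These counts are to be read against the 28.9% of all genes that passed.

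Genes of the related lists passed rarely between tumor fractions, and so did genes as a whole. In the unblocked fit of CD29H CD24H against CD29H CD24L cells no related gene passed, and the largest differences included Nr4a3 (−1.52 ± 0.40, adjusted p = 0.0858), Jdp2 (−1.12 ± 0.50, adjusted p = 0.564) and Cryab (−1.11 ± 0.33, adjusted p = 0.156). With the tumor block Nr4a3 was lower (adjusted p = 0.0187), the only gene of the 5 related lists to pass in the blocked fits of the tumor fractions. In that comparison 2.17% of all genes passed without the block and 4.93% with it. Against the mean of the other 3 fractions the largest were Trib1 (−0.89 ± 0.46), Ppp1r15a (−0.83 ± 0.35), which encodes a stress-induced phosphatase subunit, and Dusp5 (−0.76 ± 0.32), and none passed.

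The 3 tumors were set against the 2 normal preparations by averaging the arrays of each first, leaving out the CD24L array. None of the 10 members passed, against 7.65% of genes. Hspa1a differed by 0.74 ± 0.23 (adjusted p = 0.0946 in limma), Junb by −1.11 ± 0.40 (adjusted p = 0.129) and Egr1 by 0.45 ± 0.17 (adjusted p = 0.149), and these 3 had an unadjusted p under 0.05. With the actin ratio as a covariate, which was added after seeing the data, the Junb difference was 0.01 ± 0.96, and those of Jun, Atf3 and Zfp36 changed sign too. The wider standard errors mean that this fit estimates these differences poorly, so it does not show what the actin ratio accounts for. Without tumor 1 the Hspa1a difference was 0.94 and passed (adjusted p = 0.0476). Ier2 differed by −0.91 ± 0.49, and the other 6 lay between −0.46 ± 0.31 (Fosb) and 0.34 ± 0.25 (Jun). No member had all 12 tumor arrays on one side of the 4 normal epithelial arrays, against 3.34% of genes below and 4.27% above.

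Among the related genes Hspa1b was higher in tumors by 0.61 ± 0.14 (adjusted p = 0.0495), with Cryab (1.89 ± 0.22) and Hsph1 (1.16 ± 0.25), a nucleotide exchange factor for HSP70, 3 of 20 heat shock genes against 4.30% of all genes higher. Tnfaip3 and Nfkbiz, both induced by NF-κB, were higher by 2.04 ± 0.39 and 1.81 ± 0.23, and Spry2 by 1.08 ± 0.25. Lower in tumors were Nr4a3 (−1.39 ± 0.27), Dusp5 (−1.42 ± 0.31) and Crem (−2.08 ± 0.34), a factor of the cyclic AMP response. These named genes are to be read against the 7.65% of all genes that passed in either direction. Tumor and normal arrays also differed in the actin ratio and in fibroblast and leukocyte sums (leukocyte 5905 to 42093 units in tumors, against 1738 to 5350 units in normal epithelium). The part of these in the differences was not tested.

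**Figure D5:**
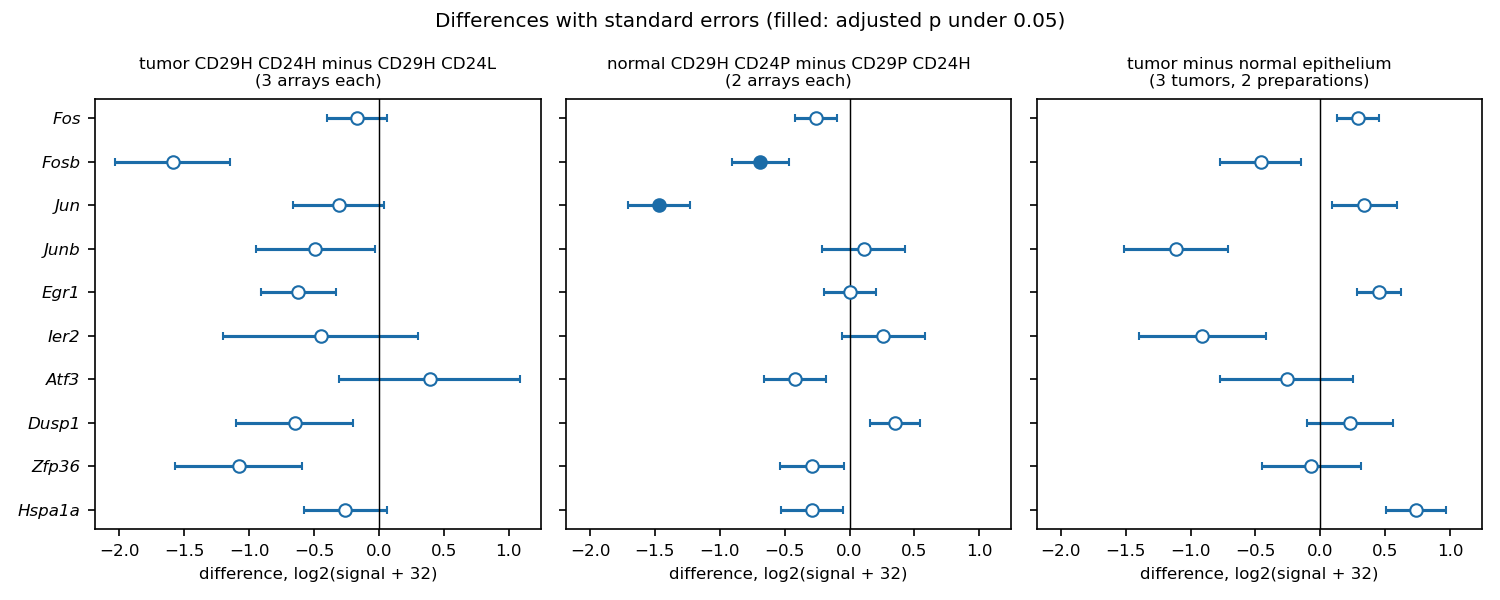
Differences of the 10 genes on the log2(signal + 32) scale with standard errors from limma, in 3 comparisons without a tumor block: tumor CD29H CD24H minus CD29H CD24L, normal CD29H CD24P minus CD29P CD24H, and tumor minus normal epithelium. Filled points have an adjusted p under 0.05, and these are Jun and Fosb in the normal comparison.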

How the data were processed

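Intensities are the authors' deposited signals, for which the submitters' processing notes name GCOS. Per the labels' protocols RNA was amplified over 2 cycles and labelled with biotin. A mean trimmed by 2% at each end was 500 on every array, so no further normalization was applied. Of 45101 probe sets, 64 were controls, 34945 had 1 gene symbol, 932 several and 9160 none in the platform annotation. The probe set with the highest mean was taken per gene, log2(signal + 32) was formed, which understates changes of dim genes, and the lowest 40% of genes were left out (10916 remained).

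Groups came from sample titles. Tumor comparisons were fitted on 12 arrays with 4 group means, the normal one on 5 arrays, and tumors against normal epithelium on 5 means, using lmFit, contrasts.fit and eBayes with a trend (limma 3.58.1, R 4.3.3). Every adjusted p is a Benjamini-Hochberg value from limma over all 10916 genes, with a threshold of 0.05. The replicate block was not in the main design, and blocked values stand beside the results they change. Same-numbered tumor arrays come from 1 tumor, and their deviations from group means correlated at 0.389 to 0.728 over 18 pairs. The 36 pairs from different tumors and fractions correlated at −0.458 to −0.0526. Deviations from a group mean cancel within a fraction, so correlations between tumors turn negative when those within a tumor are positive. The negative range is thus no separate sign of pairing. Whether normal preparations were separate animals is not stated, and p-values there cover only the spread seen among these arrays, which may be technical.

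The alternatives were offsets of 1 and 128, quantile normalization, no filter, the mean of a gene's probe sets, the block, the block with the actin ratio, matched fractions only and leaving out arrays. The members and gene lists were chosen with earlier results of these data known. Some list genes are entered under an old and a new symbol, and Srf is in more than 1 list. The rule for named genes took all members in every comparison and, from each related list, the genes past the threshold or otherwise the 3 largest differences, and not all of these are printed. Python 3.11.15 and matplotlib 3.10.9 drew the figures. The unblocked fit of CD29H CD24H against CD29H CD24L cells was tested on simulated data, drawn independently for each array with no tumor effect. The blocked fits were not tested in this way.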

Additional observations from a re-analysis of the deposited data

Results flagged for a closer look

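The CD24 difference of Fosb and of Egr1 was unlike in CD29 high and CD29 low tumor cells. For Fosb the difference of the differences was −2.11, and it passed in limma's fit with the tumor as a block (adjusted p = 0.0371) but not without it. For Egr1 it was −1.39. The Egr1 value passed in neither fit, and it is listed because its CD24 difference was negative in CD29 high cells and positive in CD29 low cells of all 3 tumors. Both were looked at after the values had been seen.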

How the results depend on the processing

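Offsets of 1 and 128, and averaging the probe sets of a gene, changed no direction and no call of the 10 members. Without the filter the normal comparison had 1 member past the threshold instead of 2. The replicate block moved the count of CD29H CD24H against CD29H CD24L from 0 to 2 members (237 genes without it, 538 with it) and that of the CD24 effects from 0 to 1 (0 and 211 genes), and the total of the first comparison from 0 to 85 genes and of the one against CD29L CD24L from 4 to 58; it changed no other call of a member. With the block, 1 member passed against CD29H CD24L with the actin ratio as a covariate and 1 without the 2 tumor arrays of lowest actin ratio. Signs of differences that had not passed turned for Egr1 in normal cells (0.09, quantile normalization), Jun against CD29L CD24H (0.06, block with the actin ratio) and Dusp1 between tumors and normal epithelium (−0.25, CD29H CD24H against CD29H CD24P arrays only). With the actin ratio as a covariate the tumor minus normal values were −0.08 ± 0.69 for Jun, 0.01 ± 0.96 for Junb, 0.73 ± 1.29 for Atf3 and 1.20 ± 0.89 for Zfp36 (SE). Without the 2 arrays of lowest actin ratio, chosen after seeing the data, Jun was −0.12 (−0.07 with the block) against the other 3 fractions, and Fos −0.02 and Ier2 0.13 against CD29L CD24L, with and without the block. The cause was not tested.

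Leaving out 1 array, or 1 tumor or preparation for tumors against normal epithelium, gave these ranges where a sign or call changed. An arm left with 1 array is assumed to vary like the others. The normal count was 1 to 3 and the tumor minus normal count 0 to 1; the other counts stayed at 0. Against the other 3 fractions the ranges were −0.57 to 0.57 for Atf3, −0.70 to 0.04 for Dusp1, −0.35 to 0.14 for Egr1, −0.23 to 0.03 for Hspa1a and −0.17 to 0.31 for Jun. Against CD29H CD24L Atf3 ranged over −0.11 to 1.03. Against CD29L CD24H they were −1.23 to 0.01 for Atf3, −0.77 to 0.14 for Dusp1, −0.48 to 0.00 for Egr1, −0.53 to 0.17 for Hspa1a, −1.39 to 0.26 for Ier2, −0.27 to 0.21 for Jun and −0.63 to 0.24 for Zfp36. Against CD29L CD24L they were −0.42 to 0.72 for Atf3, −0.57 to 0.17 for Dusp1, −0.10 to 0.11 for Fos, −0.38 to 0.21 for Fosb, −0.11 to 0.24 for Hspa1a, −0.71 to 0.08 for Ier2 and −0.56 to 0.31 for Zfp36. For the CD24 effects they were −0.92 to 0.32 for Atf3 and −1.59 to 0.06 for Ier2. In normal cells they were −0.68 to −0.15 for Atf3, −0.17 to 0.17 for Egr1, −0.75 to −0.63 for Fosb, −0.60 to 0.01 for Hspa1a, −0.09 to 0.61 for Ier2 and −0.29 to 0.52 for Junb. Between tumors and normal epithelium they were −0.64 to 0.25 for Atf3, 0.60 to 0.94 for Hspa1a and −0.36 to 0.21 for Zfp36. In normal cells Atf3 passed without CD29P CD24H replicate 1 (adjusted p = 0.0180) and Ier2 without replicate 2 (adjusted p = 0.0323).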
